A study of Homo sapiens with 12 samples.

Results

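The 35 genes described here carry out antigen presentation: 14 belong to the MHC class I pathway, 19 to the MHC class II pathway and 2 are CD1 genes. They were taken by symbol from a table of 58302 genes, and all 35 names were found. Their transcripts were counted in 12 RNA-seq libraries made from human lymphoma lines. The 4 groups, of 3 libraries each, are OCI-LY3 cells with selinexor, OCI-LY3 cells without it, SU-DHL6 cells with selinexor and SU-DHL6 cells without it. OCI-LY3 is labelled ABC-DLBCL and SU-DHL6 GCB-DLBCL, the activated and germinal centre B-cell types of diffuse large B-cell lymphoma, and both carry the genotype label WT. Selinexor blocks XPO1, the protein that carries many proteins out of the nucleus. The protocols name doses of 300 and 100 nM and times of 24 and 48 h, but the labels do not say which libraries had which, so both may differ between the lines. Each line derives from 1 patient's tumour, and a value from it describes that line only.

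MHC class I molecules pair a polymorphic heavy chain with beta-2 microglobulin and show cytosolic peptides to CD8 T cells. The peptides are cut by the proteasome, pumped into the endoplasmic reticulum by the TAP transporter and trimmed by ERAP aminopeptidases. MHC class II molecules are alpha and beta chain pairs of the DR, DP and DQ kinds that show endosomal peptides to CD4 T cells. The invariant chain CD74 guards their groove until HLA-DM exchanges its remnant for a peptide, and HLA-DO restrains HLA-DM. Class II genes are switched on together by the coactivator CIITA, held at their promoters by the RFX complex on the X box and by NF-Y on the Y box. NLRC5 plays the like role for class I genes.

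Promoter sequences are shown because many class II genes hold both boxes and many class I genes an interferon-responsive element. They are RefSeq sequences on GRCh38.p14, which held 31 of the 35 genes; HLA-DRA, HLA-E, CIITA and NLRC5 had none. Each runs from 150 to 21 bases before the start of transcription, 5′ to 3′ on the gene's strand. In the class II sequences, capitals mark an X box core and then a Y box core; HLA-DMA, HLA-DOA and HLA-DOB are genes that rose in OCI-LY3, and HLA-DRB1 and HLA-DQB1 ones that did not pass the test.
HLA-DRB1 (chr6:32589869-32589998, minus strand): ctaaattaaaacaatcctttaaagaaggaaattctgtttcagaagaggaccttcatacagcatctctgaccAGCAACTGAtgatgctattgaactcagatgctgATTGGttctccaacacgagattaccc
HLA-DQB1 (chr6:32666678-32666807, minus strand): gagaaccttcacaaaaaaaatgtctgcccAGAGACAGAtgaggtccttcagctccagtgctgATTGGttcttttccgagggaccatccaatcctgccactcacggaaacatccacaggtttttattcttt
HLA-DMA (chr6:32953118-32953247, minus strand): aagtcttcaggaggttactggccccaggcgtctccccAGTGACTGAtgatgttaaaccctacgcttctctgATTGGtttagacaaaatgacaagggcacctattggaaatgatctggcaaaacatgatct
HLA-DOA (chr6:33009612-33009741, minus strand): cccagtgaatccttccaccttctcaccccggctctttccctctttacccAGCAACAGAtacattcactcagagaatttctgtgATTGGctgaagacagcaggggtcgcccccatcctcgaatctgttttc
HLA-DOB (chr6:32817023-32817152, minus strand): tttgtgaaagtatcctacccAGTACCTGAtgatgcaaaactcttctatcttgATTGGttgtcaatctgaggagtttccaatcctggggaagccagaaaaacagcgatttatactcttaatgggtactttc
In the class I sequences, capitals mark every match to the interferon element on either strand.
TAP1 (chr6:32853725-32853854, minus strand): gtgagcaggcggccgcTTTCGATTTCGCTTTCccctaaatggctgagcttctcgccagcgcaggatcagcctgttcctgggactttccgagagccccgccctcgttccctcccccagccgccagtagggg
TAP2 (chr6:32838760-32838889, minus strand): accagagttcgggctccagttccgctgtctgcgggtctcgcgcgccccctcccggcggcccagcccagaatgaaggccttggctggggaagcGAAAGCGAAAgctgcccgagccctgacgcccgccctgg
B2M (chr15:44711367-44711496, plus strand): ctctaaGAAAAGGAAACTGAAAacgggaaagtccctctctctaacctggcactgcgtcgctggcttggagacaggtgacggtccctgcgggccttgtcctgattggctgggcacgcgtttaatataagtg

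The letters searched were AGNNNCNGA for the X core, ATTGG for the Y core and, for the interferon element, GAAA followed after any 2 bases by a further GAAA, on both strands of the 250 bases before a start, with overlapping matches merged. They were chosen after these sequences had been seen. An X core followed by a Y core within 15 to 30 bases was found in 8 of 17 class II genes (47.06%), in 1 of 12 class I genes (HLA-C) and in 1.03% of all 27305 genes with a promoter. The 8 were HLA-DRB1, HLA-DRB5, HLA-DQA1, HLA-DQB1, HLA-DQB2, HLA-DMA, HLA-DOA and HLA-DOB. The Y core alone was found in 14 of 17 class II genes (82.35%), in 7 of 12 class I genes (58.33%) and in 37.0% of all genes. The interferon element was found in 7 of 12 class I genes (58.33%), in 1 of 17 class II genes (RFX5) and in 3.71% of all genes. The 7 were HLA-F, B2M, TAP1, TAP2, TAPBP, PSMB10 and ERAP2. A match describes these letters only and is not evidence of binding.

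Libraries held 14210200 to 16405842 counts on genes, and all values below are CPM (counts per 1000000 counts of the TMM-scaled library) unless said otherwise. All 35 genes were among the 16474 kept for testing, though NLRC5, CD1C and CD1D passed only through OCI-LY3, and CD1C only through its untreated libraries. XPO1 rose in both lines, by 0.99 ± 0.13 on the log2 scale in OCI-LY3 (edgeR adjusted p = 2.41e-05) and by 1.77 ± 0.13 in SU-DHL6 (edgeR adjusted p = 1.1e-07). The B-cell markers MS4A1, CD79A, CD79B, PAX5, CD22 and BLK reached 1 CPM in both lines. The 5 germinal centre markers summed to 503 to 718 CPM in SU-DHL6 libraries and 132 to 156 CPM in OCI-LY3 libraries. The 4 activated B-cell markers summed to 1683 to 2435 CPM in OCI-LY3 and 138 to 222 CPM in SU-DHL6. The 4 dendritic cell markers summed to at most 0.622 CPM in any library. The 5 T-cell markers held 3.16 to 4.89 CPM in treated OCI-LY3, from CD3E and CD8A, against 0.0702 to 0.627 CPM in untreated OCI-LY3, with CD2 and CD3G at 0 in every library. In OCI-LY3 the 5 macrophage markers held 19.3 to 21.8 CPM in treated and 29.4 to 32.0 CPM in untreated libraries. ITGAM averaged at least 1 CPM in both OCI-LY3 groups and CSF1R in the treated one, with CD14 and LYZ at 0. The 5 stromal and epithelial markers, with KRT5 and COL1A1 above 1 CPM and EPCAM at 0, held 119 to 141 CPM in treated and 56.7 to 83.0 CPM in untreated OCI-LY3 libraries. Their part in the results below was not tested. In bulk samples, fewer cells of a type and less RNA per cell cannot be told apart.

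With selinexor, more class II genes of OCI-LY3 rose than fell, class I genes went both ways, and no member was called higher in SU-DHL6. In OCI-LY3, 15 members rose and 10 fell at an edgeR adjusted p under 0.05, against 22.2% of all tested genes rising and 22.2% falling. The falls were 9 without CD1C, which passed the filter on low counts only through the group in which it is high. Among the class II genes 10 rose and 3 fell, with a median log2 fold change of 0.42. Among the class I genes 4 rose and 6 fell, with a median of -0.19. The median over all tested genes was 0. Scaled by total counts instead of TMM, 10 members rose and 11 fell in OCI-LY3. Of class II genes 8 rose and 3 fell, and of class I genes 1 rose and 7 fell. The median over all tested genes was -0.087 under that scaling. The share of all tested genes called under it is not given here, so these counts have no such comparison. In SU-DHL6, 10 members fell, against 22.8% of all tested genes, and 0 rose, against 20.4%. No member of SU-DHL6 rose at an unadjusted edgeR p under 0.05 either, and DESeq2 and limma-voom also called 0. Of the 10 falls, 3 were class I genes (median of all 14, -0.10) and 7 class II genes (median of all 19, -0.24), against a median of 0.0028 over all tested genes. The downward lean in SU-DHL6 depended on scaling. With total counts the median over all tested genes was 0.27, and the class II median of 0.022 and the class I median of 0.16 both lay below it. Under that scaling 5 of the 10 falls held (HLA-E, TAP1, PSMB9, HLA-DQB2 and RFXAP), and HLA-B was called higher.

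**Figure D1:**
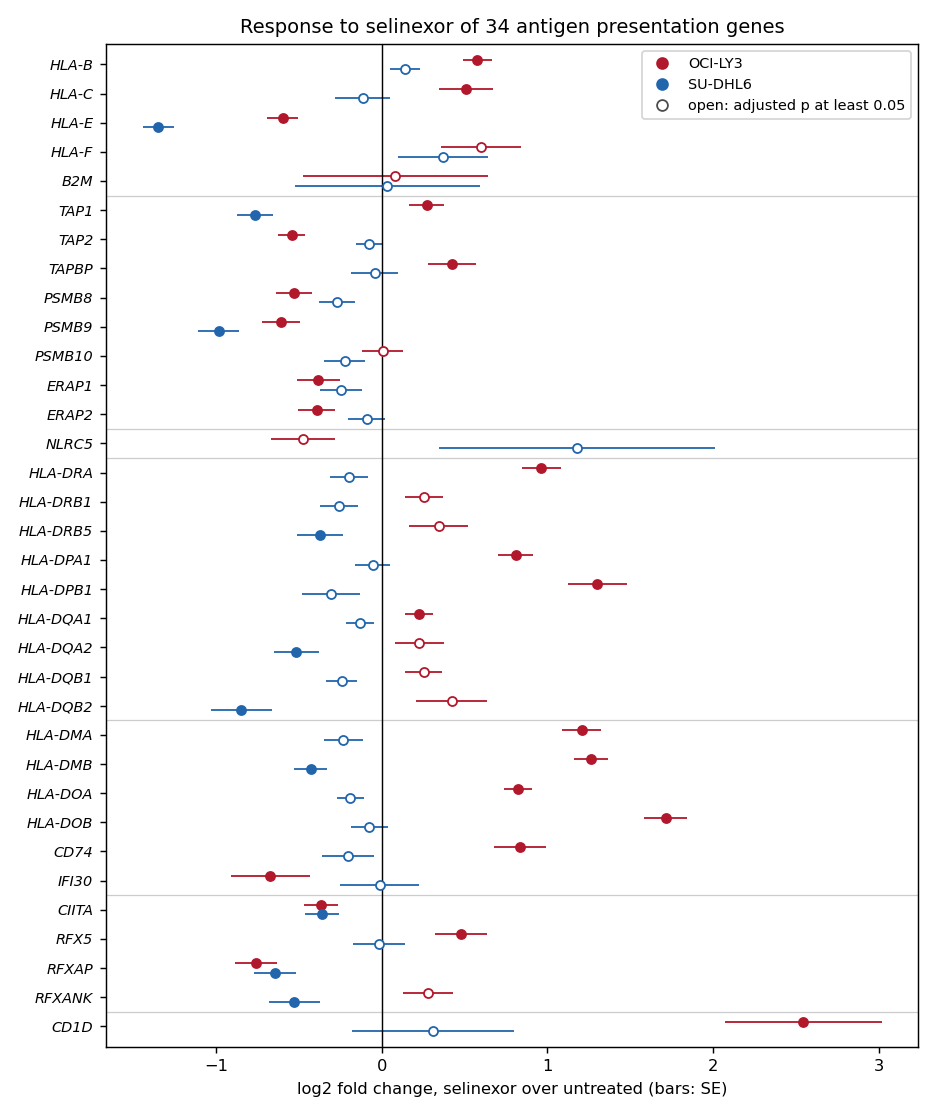
Response of 34 members to selinexor. The x axis is the log2 fold change of treated over untreated libraries with its SE (3 libraries a group), red for OCI-LY3 and blue for SU-DHL6. Filled points passed an edgeR adjusted p of 0.05; lines separate the roles. The class II chain and loading genes of OCI-LY3 lie right of 0 except IFI30, whereas no SU-DHL6 gene is both filled and right of 0. CD1C, at 0 counts in SU-DHL6, is left out.

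The class II chains were led by the DR alpha and the DP genes. HLA-DRA encodes the DR alpha chain, which pairs with every DR beta chain. In OCI-LY3 it had 1699, 1848 and 2104 CPM in treated libraries, against 897, 1042 and 959 CPM in untreated libraries (log2 fold change 0.96 ± 0.12 (SE), edgeR adjusted p = 1.46e-05; later parentheses give the same quantities). The SU-DHL6 cells had 2203, 1679 and 1757 CPM in treated libraries, against 2106, 2147 and 2212 CPM in untreated libraries (-0.20 ± 0.12, edgeR adjusted p = 0.187). The treated OCI-LY3 libraries all lay above the untreated ones (1.95-fold) and within the range of the treated SU-DHL6 libraries. HLA-DPA1 and HLA-DPB1 encode the alpha and beta chains of DP. In OCI-LY3, HLA-DPB1 had 220.1, 215 and 210.2 CPM in treated libraries, against 63.8, 104 and 94.5 CPM in untreated libraries (1.30 ± 0.18, edgeR adjusted p = 6.05e-05). HLA-DPA1 had 646, 575 and 625 CPM in treated libraries, against 352, 354 and 348 CPM in untreated libraries (0.81 ± 0.11, edgeR adjusted p = 2.88e-05). Neither group pair overlapped in OCI-LY3. In SU-DHL6 the same chains did not pass the test: HLA-DPB1 had 368, 319 and 251 CPM in treated libraries, against 379, 449 and 334 CPM in untreated libraries (-0.31 ± 0.17, edgeR adjusted p = 0.172), and HLA-DPA1 had 972, 717 and 802 CPM in treated libraries, against 883, 858 and 847 CPM in untreated libraries (-0.06 ± 0.10, edgeR adjusted p = 0.712). The DP genes overlap each other on opposite strands, and a strand setting for the counting is not stated.

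The DQ chains and the other DR beta chains moved less. HLA-DRB1, the main DR beta chain, had 211, 232 and 212 CPM in treated libraries, against 164, 185 and 201 CPM in untreated libraries of OCI-LY3 (0.25 ± 0.11, edgeR adjusted p = 0.0864). In SU-DHL6 it had 326, 259.5 and 281 CPM in treated libraries, against 302, 361 and 374 CPM in untreated libraries (-0.26 ± 0.11, edgeR adjusted p = 0.0806). The OCI-LY3 groups did not overlap and the SU-DHL6 groups did, but neither change passed the test. HLA-DQA1, a DQ alpha chain, rose in OCI-LY3 with 45.5, 48.1 and 48.3 CPM in treated libraries, against 41.0, 38.4 and 42.1 CPM in untreated libraries (0.22 ± 0.09, edgeR adjusted p = 0.0469). That call was lost in 9 of the 12 fits that each left out 1 library, at edgeR adjusted p values of 0.0524 to 0.166, and under total counts (0.329), limma-voom (0.0579) and no filter on low counts (0.161). The 3 fits that kept it left out the first untreated SU-DHL6 library, the first treated one or the third treated one. In SU-DHL6, HLA-DQA1 had 254, 244 and 224 CPM in treated libraries, against 269, 254 and 268 CPM in untreated libraries (-0.13 ± 0.08, edgeR adjusted p = 0.215). HLA-DQB1, its beta partner, had 8.39, 9.02 and 8.68 CPM in treated libraries, against 7.24, 7.09 and 7.57 CPM in untreated libraries of OCI-LY3 (0.25 ± 0.11, edgeR adjusted p = 0.0854). In SU-DHL6 its values were 163, 133 and 145 CPM in treated libraries, against 166, 168 and 188 CPM in untreated libraries (-0.24 ± 0.09, edgeR adjusted p = 0.0515); treated and untreated libraries did not overlap in either line, without a call in either.

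HLA-DRB5, HLA-DQA2 and HLA-DQB2 are close relatives of these chains and were the class II chains that fell in SU-DHL6. HLA-DQB2 had 3.21, 3.46 and 3.15 CPM in treated libraries, against 5.90, 5.59 and 6.21 CPM in untreated libraries (-0.85 ± 0.18, edgeR adjusted p = 0.00179), with no overlap. HLA-DQA2 had 126, 95.9 and 81.6 CPM in treated libraries, against 139.8, 146 and 148 CPM in untreated libraries (-0.52 ± 0.14, edgeR adjusted p = 0.00725), also with no overlap. HLA-DRB5 had 124, 118 and 109 CPM in treated libraries, against 121, 172 and 162 CPM in untreated libraries (-0.37 ± 0.14, edgeR adjusted p = 0.0456), and its groups overlapped. The HLA-DRB5 call was lost in 7 of 12 fits that left out 1 library, those without the third treated, the second untreated or the third untreated SU-DHL6 library giving the highest edgeR adjusted p values (0.139, 0.176 and 0.174). In OCI-LY3 none of these passed: HLA-DQB2 had 1.71, 2.03 and 2.26 CPM in treated libraries, against 1.39, 1.61 and 1.47 CPM in untreated libraries (0.42 ± 0.21), HLA-DQA2 had 17.0, 17.6 and 21.4 CPM in treated libraries, against 16.02, 15.4 and 16.5 CPM in untreated libraries (0.23 ± 0.15) and HLA-DRB5 had 5.43, 7.07 and 5.28 CPM in treated libraries, against 3.901, 4.77 and 5.36 CPM in untreated libraries (0.34 ± 0.18). Reads can be shared within these pairs: of the 50-base windows of the transcripts, 14.5% of HLA-DQA1 also occur in HLA-DQA2, 8.6% of HLA-DRB1 in HLA-DRB5 and 4.9% of HLA-DQB1 in HLA-DQB2. With each pair summed, the changes in OCI-LY3 were 0.26 for DRB, 0.22 for DQA and 0.28 for DQB, and in SU-DHL6 -0.29, -0.26 and -0.26. Of these sums, DQB passed in OCI-LY3 (edgeR adjusted p = 0.0494), and DQA (0.0355) and DQB (0.0381) passed in SU-DHL6.

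Of the 6 peptide-loading genes of class II, 5 rose and 1 fell in OCI-LY3. HLA-DOB, the beta chain of the HLA-DO inhibitor, had 18.7, 16.5 and 15.4 CPM in treated libraries, against 5.22, 5.69 and 4.48 CPM in untreated libraries (1.71 ± 0.13, edgeR adjusted p = 1.75e-07), a 3.28-fold rise. HLA-DMB had 116, 108 and 126 CPM in treated libraries, against 44.0, 47.5 and 54.1 CPM in untreated libraries (1.26 ± 0.10, edgeR adjusted p = 3.38e-07), and HLA-DMA had 104, 115 and 128 CPM in treated libraries, against 52.1, 46.9 and 50.8 CPM in untreated libraries (1.21 ± 0.12, edgeR adjusted p = 2.06e-06). HLA-DMA and HLA-DMB are the 2 chains of the HLA-DM peptide exchanger, and their rises were of like size. HLA-DOA, the alpha chain of HLA-DO, had 169.9, 164 and 148 CPM in treated libraries, against 90.8, 89.7 and 92.1 CPM in untreated libraries (0.82 ± 0.08, edgeR adjusted p = 2.73e-06). CD74, the invariant chain, had 5577, 6292 and 5717 CPM in treated libraries, against 3029, 3519 and 3309.9 CPM in untreated libraries (0.84 ± 0.16, edgeR adjusted p = 0.000642). For all 5 genes every treated OCI-LY3 library lay above every untreated one, and together with HLA-DRA, HLA-DPA1 and HLA-DPB1 they kept their calls under every alternative tried. Groups also lay apart for members without a call in OCI-LY3, such as HLA-DRB1 and HLA-DQB1. The share of all tested genes whose groups lie apart is not given here. HLA-DMA, HLA-DOA and HLA-DOB hold the X and Y cores shown above, and the promoters of HLA-DMB, HLA-DPA1, HLA-DPB1 and CD74, which rose as well, held no such pair in this window. HLA-DMA overlaps BRD2 on the other strand, a gene with more counts.

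B-cell markers moved with the class II chains and loading genes of OCI-LY3: the list of 7 genes summed to 3363 to 3624 CPM in treated and 2340 to 2401 CPM in untreated libraries. MS4A1 (1.16 ± 0.12) and CD79B (1.74 ± 0.11) were among those that rose. In SU-DHL6 the sum was 3044 to 3239 CPM in treated and 3359 to 4029 CPM in untreated libraries. Their part in the class II changes was not tested.

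Of the 6 loading genes in SU-DHL6, 1 fell and the other 5 did not pass the test. HLA-DMB fell, with 320.3, 280.1 and 281 CPM in treated libraries, against 380.5, 415 and 390.5 CPM in untreated libraries (-0.43 ± 0.10, edgeR adjusted p = 0.00313); under total counts this call was lost (edgeR adjusted p = 0.164). HLA-DMA had 127, 92.4 and 109.9 CPM in treated libraries, against 133, 125 and 129 CPM in untreated libraries (-0.23 ± 0.12, edgeR adjusted p = 0.123). HLA-DOA had 212, 212 and 206 CPM in treated libraries, against 226, 243 and 248 CPM in untreated libraries (-0.19 ± 0.08, edgeR adjusted p = 0.0774). The HLA-DOA groups did not overlap, and those of HLA-DMA did. HLA-DOB had 58.5, 56.0 and 57.9 CPM in treated libraries, against 57.9, 56.4 and 67.2 CPM in untreated libraries (-0.07 ± 0.11, edgeR adjusted p = 0.631). CD74 had 2477, 2460.3 and 1919 CPM in treated libraries, against 1951, 2703 and 3244 CPM in untreated libraries (-0.20 ± 0.16, edgeR adjusted p = 0.317), and its groups overlapped. Without the first untreated SU-DHL6 library, CD74 was called lower there (edgeR adjusted p = 0.0257). IFI30, the lysosomal thiol reductase that unfolds antigens for class II loading, went the other way in OCI-LY3: it fell, with 224, 209 and 194 CPM in treated libraries, against 310.2, 331 and 359 CPM in untreated libraries (-0.67 ± 0.24, edgeR adjusted p = 0.0389). Its call was lost in 9 of the 12 fits that left out 1 library, at 0.0534 to 0.12, which were those without any 1 of the 6 OCI-LY3 libraries, the first or second untreated SU-DHL6 library or the second treated one. It was also lost with limma-voom (0.0543). In SU-DHL6, IFI30 had 756, 582 and 309.7 CPM in treated libraries, against 535, 528 and 600.1 CPM in untreated libraries (-0.01 ± 0.24, edgeR adjusted p = 0.993), with treated libraries more than 2-fold apart.

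Of the 4 regulators of class II, 1 rose and 2 fell in OCI-LY3 and 3 fell in SU-DHL6. CIITA fell in OCI-LY3, with 192, 199 and 155 CPM in treated libraries, against 235, 229 and 241 CPM in untreated libraries (-0.37 ± 0.10, edgeR adjusted p = 0.00945). It fell to a like extent in SU-DHL6, with 66.9, 74.3 and 76.6 CPM in treated libraries, against 87.6, 98.3 and 93.9 CPM in untreated libraries (-0.36 ± 0.10, edgeR adjusted p = 0.0117), where the call was lost under total counts (0.493). No treated library reached the lowest untreated one in either line, and the difference between the responses was -0.01 ± 0.15 (edgeR adjusted p = 1), or -0.39 under total counts (0.0453). RFXAP, a subunit of the RFX complex, fell in OCI-LY3, with 22.1, 26.3 and 26.6 CPM in treated libraries, against 42.5, 45.8 and 38.8 CPM in untreated libraries (-0.76 ± 0.12, edgeR adjusted p = 0.000209). In SU-DHL6 RFXAP fell as well, with 11.4, 12 and 13.9 CPM in treated libraries, against 20.8, 17.5 and 20.2 CPM in untreated libraries (-0.65 ± 0.13, edgeR adjusted p = 0.000993). RFXAP thus fell in both lines with no overlap and under every scaling. RFX5, the DNA-binding subunit, rose in OCI-LY3, with 181, 186 and 196 CPM in treated libraries, against 154, 91.0 and 160.5 CPM in untreated libraries (0.48 ± 0.16, edgeR adjusted p = 0.0232). The second untreated library was the low one, and the RFX5 call was lost without the third treated library (0.0671), under total counts (0.0827) and with OCI-LY3 fitted alone (0.108); without the second untreated library the change was 0.26. In SU-DHL6 RFX5 had 128, 127 and 121 CPM in treated libraries, against 129.5, 129 and 122 CPM in untreated libraries (-0.02 ± 0.16, edgeR adjusted p = 0.967). RFXANK, the third subunit, had 154, 159 and 145 CPM in treated libraries, against 131, 110.4 and 136 CPM in untreated libraries of OCI-LY3 (0.28 ± 0.15, edgeR adjusted p = 0.157). In SU-DHL6 it fell, with 64.0, 54.1 and 67.6 CPM in treated libraries, against 65.2, 97.7 and 105 CPM in untreated libraries (-0.53 ± 0.15, edgeR adjusted p = 0.0125). The SU-DHL6 groups overlapped in the first untreated library, and the call was lost without the third untreated (0.0939) or the second treated library (0.0606) and under total counts (0.163). CIITA and RFXANK overlap neighbouring genes.

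**Figure D2:**
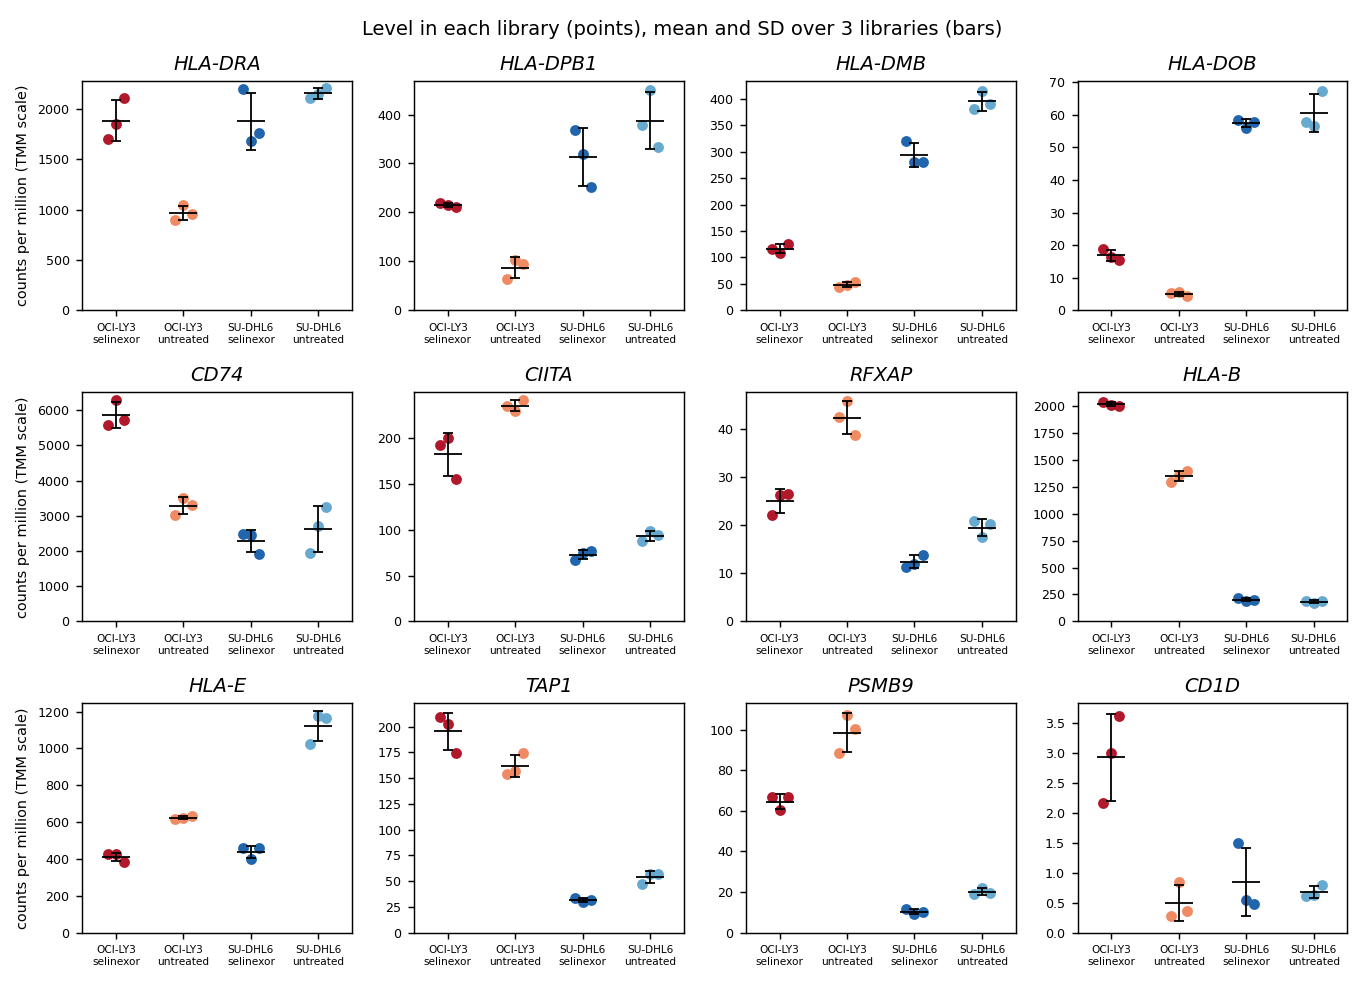
Levels of 12 members in each library. Points are CPM of TMM-scaled totals in single libraries, and bars are the mean and SD over 3 libraries of a group. Class II chains and loading genes of treated OCI-LY3 sit above the untreated libraries and below SU-DHL6 for HLA-DPB1, HLA-DMB and HLA-DOB, while CIITA and RFXAP are lower in the treated libraries of both lines.

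The responses of the lines differed for every class II chain and for most loading genes. The response was higher in OCI-LY3 than in SU-DHL6 for 20 members and lower for 1, against 19.9% and 17.0% of all tested genes. Without NLRC5, CD1C and CD1D it was higher for 19 and lower for 1. Of the 20, 15 were class II genes, whose median difference (OCI-LY3 minus SU-DHL6) was 0.81 on the log2 scale, against 0.020 over all genes and 0.23 over the class I genes. All 9 class II chains were among them, from 0.36 ± 0.12 for HLA-DQA1 (edgeR adjusted p = 0.0303) to 1.61 ± 0.25 for HLA-DPB1 (0.000254). So were 5 of 6 loading genes, from 1.01 ± 0.12 for HLA-DOA (1.88e-05) to 1.79 ± 0.17 for HLA-DOB (3.98e-06). Of the 4 regulators, RFXANK differed (0.81 ± 0.22, 0.0095). For HLA-DRB1, HLA-DRB5, HLA-DQA2, HLA-DQB1 and HLA-DQB2 the difference passed although the change in OCI-LY3 did not. Under total counts the median over all genes moved to -0.35 and 12 of the 20 differences held. Among the class II chains those of HLA-DRA, HLA-DPA1, HLA-DPB1 and HLA-DQB2 held, and the HLA-DQA1 difference turned to -0.020. All 5 loading genes held under it.

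Leaving out single libraries ended several of the smaller differences. Without the third untreated SU-DHL6 library, those of HLA-B (edgeR adjusted p = 0.0666), HLA-DRB1 (0.0878), HLA-DRB5 (0.0679), HLA-DQA1 (0.0987), HLA-DQB1 (0.0696) and CD1D (0.0558) were lost. HLA-DRB1 was also lost without the first untreated (0.0629) or second treated OCI-LY3 library (0.0617) and without the second treated SU-DHL6 library (0.059). HLA-DRB5 was lost in 5 such fits, the highest value (0.0827) being without the second treated OCI-LY3 library. HLA-DQA1 was lost in 6 and HLA-C in 8 of 12, at up to 0.0987 and 0.103. The differences of HLA-DRA, HLA-DPA1, HLA-DPB1, HLA-DMA, HLA-DMB, HLA-DOA, HLA-DOB, CD74, HLA-E, TAP1, TAP2, HLA-DQA2, HLA-DQB2 and RFXANK were kept in every such fit. Other calls appeared. Without the first treated SU-DHL6 library, HLA-DRA (0.0239), HLA-DRB1 (0.0286), HLA-DQB1 (0.0198), HLA-DMA (0.0274), PSMB8 (0.0306) and PSMB10 (0.0128) were called lower in SU-DHL6. Without the first untreated one, HLA-DRB1 (0.019), HLA-DQB1 (0.0304) and HLA-DOA (0.0285) were called lower there, and the differences of TAPBP (0.00446) and ERAP2 (0.018) passed. Without the third treated SU-DHL6 library the IFI30 difference passed (-0.94, edgeR adjusted p = 0.000947).

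The class I chains did not move as a block. HLA-B, a classical heavy chain, rose in OCI-LY3, with 2032, 2011 and 1994 CPM in treated libraries, against 1296, 1360.5 and 1391 CPM in untreated libraries (0.58 ± 0.09, edgeR adjusted p = 0.000117). In SU-DHL6, HLA-B had 215, 187 and 202 CPM in treated libraries, against 187, 167 and 194 CPM in untreated libraries (0.14 ± 0.09, edgeR adjusted p = 0.22). HLA-C, also classical, rose in OCI-LY3, with 303, 365 and 321 CPM in treated libraries, against 212, 234 and 249 CPM in untreated libraries (0.51 ± 0.16, edgeR adjusted p = 0.0205). The groups did not overlap in OCI-LY3 for either gene. The HLA-C call was lost without the first (0.0787) or second (0.0503) untreated or the second treated library (0.0751) and under total counts (0.0643). In SU-DHL6 HLA-C had 123.3, 137 and 161 CPM in treated libraries, against 129, 201 and 126 CPM in untreated libraries (-0.12 ± 0.16, edgeR adjusted p = 0.604). HLA-B and HLA-C overlap in the annotation and are polymorphic, so reads may be divided between them differently in the 2 lines. The differences between the lines were 0.44 ± 0.12 for HLA-B (edgeR adjusted p = 0.0138) and 0.63 ± 0.23 for HLA-C (0.0466), and neither held under total counts (0.754 and 0.444).

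HLA-E fell in both lines. It is the nonclassical chain that shows leader peptides of other class I chains to receptors of natural killer cells. In OCI-LY3 it had 425, 424 and 384 CPM in treated libraries, against 615, 622 and 632 CPM in untreated libraries (-0.60 ± 0.09, edgeR adjusted p = 0.000118). In SU-DHL6 it had 458, 402 and 459.9 CPM in treated libraries, against 1026, 1175 and 1164 CPM in untreated libraries (-1.35 ± 0.09, edgeR adjusted p = 6.44e-08), a fold of 0.392. The groups did not overlap in either line, the fall was deeper in SU-DHL6 (difference 0.75 ± 0.13, edgeR adjusted p = 0.000456), and both falls held under every alternative. HLA-F, another nonclassical chain, had 30.7, 21.4 and 25.7 CPM in treated libraries, against 11.6, 25.3 and 14.4 CPM in untreated libraries of OCI-LY3 (0.60 ± 0.24, edgeR adjusted p = 0.0587). The second untreated library was the high one; without it HLA-F was called higher (1.00, edgeR adjusted p = 0.00181), as it was with all libraries by DESeq2 (0.0461) and limma-voom (0.0286). In SU-DHL6 HLA-F had 4.65, 4.11 and 5.24 CPM in treated libraries, against 3.12, 4.23 and 3.47 CPM in untreated libraries (0.37 ± 0.27, edgeR adjusted p = 0.302).

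B2M could not be resolved. This light chain of all class I molecules had 229, 951 and 1099 CPM in treated libraries, against 1058, 502 and 593 CPM in untreated libraries of OCI-LY3 (0.08 ± 0.56, edgeR adjusted p = 0.936). SU-DHL6 had 270.5, 261 and 464 CPM in treated libraries, against 286, 248 and 438 CPM in untreated libraries (0.03 ± 0.56, edgeR adjusted p = 0.992). Single libraries of 1 group differed by up to several-fold, far more than the other chains, and the SE of 0.56 means that changes of that order were not detectable.

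Of 8 peptide supply genes, 2 rose and 5 fell in OCI-LY3, against 22.2% of all tested genes each way. In SU-DHL6 0 rose and 2 fell, against 20.4% and 22.8%, so the falls there were near that share. All 8 had log2 fold changes below 0 in SU-DHL6 under TMM, but 5 lay above 0 under total counts. TAP1 and TAP2 are the 2 subunits of the peptide transporter, and they moved apart. In OCI-LY3 TAP1 had 209, 202 and 175 CPM in treated libraries, against 154, 157 and 174 CPM in untreated libraries (0.27 ± 0.11, edgeR adjusted p = 0.0492). In SU-DHL6 it fell, with 33.4, 29.7 and 31.4 CPM in treated libraries, against 46.9, 57.1 and 56.9 CPM in untreated libraries (-0.77 ± 0.11, edgeR adjusted p = 6.55e-05). The groups did not overlap in either line, but in OCI-LY3 by a margin of less than 1 CPM. The OCI-LY3 rise was lost in 9 of 12 fits that left out 1 library, the highest values being without the first treated (0.166) or first untreated OCI-LY3 library (0.152), and under total counts (0.208); the SU-DHL6 fall held throughout. TAP2 fell in OCI-LY3, with 33.2, 34.7 and 32.7 CPM in treated libraries, against 48.7, 49.8 and 48.2 CPM in untreated libraries (-0.55 ± 0.08, edgeR adjusted p = 9.69e-05). In SU-DHL6 it had 100.1, 97.3 and 98.2 CPM in treated libraries, against 104, 106 and 101 CPM in untreated libraries (-0.08 ± 0.08, edgeR adjusted p = 0.475). The difference between the lines was 1.04 ± 0.15 for TAP1 (edgeR adjusted p = 0.000123) and -0.47 ± 0.11 for TAP2 (0.00502), the 1 member called lower in OCI-LY3 (5 members under total counts, by which the TAP2 difference held). TAPBP, or tapasin, bridges TAP and empty class I molecules. It rose in OCI-LY3, with 434, 414 and 363 CPM in treated libraries, against 324, 324 and 256 CPM in untreated libraries (0.42 ± 0.14, edgeR adjusted p = 0.0274), a call lost without the third untreated (0.126) or the first (0.0917) or second treated library (0.0709) and under total counts (0.0713). In SU-DHL6 TAPBP had 260.5, 242 and 245 CPM in treated libraries, against 194, 286 and 291 CPM in untreated libraries (-0.04 ± 0.14, edgeR adjusted p = 0.85).

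The immunoproteasome subunits PSMB8, PSMB9 and PSMB10 replace the constitutive catalytic subunits in immune cells. PSMB9 fell in OCI-LY3, with 66.8, 60.5 and 66.7 CPM in treated libraries, against 88.5, 107 and 100.2 CPM in untreated libraries (-0.61 ± 0.11, edgeR adjusted p = 0.000635). It also fell in SU-DHL6, with 11.6, 9.08 and 9.95 CPM in treated libraries, against 19.0, 22.2 and 19.4 CPM in untreated libraries (-0.98 ± 0.12, edgeR adjusted p = 2.07e-05). Treated libraries lay below all untreated ones in both lines. PSMB8 fell in OCI-LY3, with 115, 111 and 113 CPM in treated libraries, against 162, 169.9 and 158 CPM in untreated libraries (-0.53 ± 0.11, edgeR adjusted p = 0.00103). In SU-DHL6 PSMB8 had 46.3, 38.8 and 40.9 CPM in treated libraries, against 42.7, 55.4 and 53.7 CPM in untreated libraries (-0.27 ± 0.11, edgeR adjusted p = 0.0575), with overlap in the first untreated library, without which it was called lower (0.00385). PSMB8 and PSMB9 overlap on opposite strands. PSMB10 had 197, 202 and 183 CPM in treated libraries, against 176, 208 and 197 CPM in untreated libraries of OCI-LY3 (0.01 ± 0.12, edgeR adjusted p = 0.994). The SU-DHL6 cells had 82.7, 59.6 and 62.4 CPM in treated libraries, against 72.3, 81.3 and 85.4 CPM in untreated libraries (-0.22 ± 0.12, edgeR adjusted p = 0.161). PSMB10 thus passed in neither line.

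The trimming enzymes ERAP1 and ERAP2 fell in OCI-LY3. ERAP2 had 82.5, 92.9 and 97.2 CPM in treated libraries, against 127, 114 and 118 CPM in untreated libraries (-0.39 ± 0.11, edgeR adjusted p = 0.0111). ERAP1 had 19.9, 23.2 and 25.9 CPM in treated libraries, against 31.7, 30.1 and 28.3 CPM in untreated libraries (-0.38 ± 0.13, edgeR adjusted p = 0.0265). Neither pair of groups overlapped. Without the first treated library both calls were lost (0.0575 for ERAP2 and 0.12 for ERAP1), and ERAP1 was also lost without the first (0.0876) or second untreated (0.0634) or second treated library (0.0602). In SU-DHL6 ERAP2 had 53.8, 59.7 and 54.9 CPM in treated libraries, against 70.4, 54.0 and 55.1 CPM in untreated libraries (-0.09 ± 0.11, edgeR adjusted p = 0.55). ERAP1 had 26.6, 28.97 and 30.1 CPM in treated libraries, against 39.3, 30.8 and 31.4 CPM in untreated libraries there (-0.24 ± 0.13, edgeR adjusted p = 0.138). ERAP1 overlaps CAST on the other strand.

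NLRC5 was present in OCI-LY3 and close to absent in SU-DHL6. In OCI-LY3 this class I coactivator had 47.6, 48.1 and 36.5 CPM in treated libraries, against 60.1, 63.0 and 60.9 CPM in untreated libraries (-0.48 ± 0.19, edgeR adjusted p = 0.0585). All treated libraries were lower, although the test was missed; DESeq2 (adjusted p = 0.00747), limma-voom (0.00992) and edgeR with total counts (0.0222) called it lower. In SU-DHL6 it had 9 counts over the 3 treated libraries and 3 over the untreated ones. The ratio of OCI-LY3 to SU-DHL6 was 270-fold with treatment (exact 95% interval 142 to 592, counting error only) and 913-fold without it (312 to 4432). No response in SU-DHL6 was detectable at this depth.

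The CD1 molecules, class I-like chains that show lipids, moved apart in OCI-LY3. CD1D, which presents to invariant natural killer T cells, had 2.17, 3.01 and 3.62 CPM in treated libraries, against 0.279, 0.842 and 0.367 CPM in untreated libraries (2.54 ± 0.47, edgeR adjusted p = 0.000592). In SU-DHL6 its values were 1.495, 0.540 and 0.481 CPM in treated libraries, against 0.610, 0.621 and 0.795 CPM in untreated libraries (0.31 ± 0.49, edgeR adjusted p = 0.65). The treated OCI-LY3 libraries stood above all others, at levels of a few CPM. The difference was 2.23 ± 0.69 (edgeR adjusted p = 0.0211); it was lost without the first untreated OCI-LY3 library (0.0542) or the third untreated SU-DHL6 library (0.0558). CD1C had 0.388, 0.376 and 0.377 CPM in treated libraries, against 1.39, 0.913 and 1.25 CPM in untreated libraries of OCI-LY3 (-1.62 ± 0.44, edgeR adjusted p = 0.013). Its fall rests on a gene that only these untreated libraries carried past the filter, and was lost without the first untreated library (0.0551) and with DESeq2 (0.0537). CD1C had 0 counts in every SU-DHL6 library, so OCI-LY3 was at least 7.01-fold higher with treatment and at least 17.6-fold higher without it, against a floor of 3 counts over the group.

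The untreated lines differed in opposite directions for class I and class II. NLRC5, CD1C and CD1D are left out of these counts, since they passed the filter on low counts only through OCI-LY3. Of the other 13 class I genes, 8 were higher and 2 lower in OCI-LY3 than in SU-DHL6, with a median log2 fold change of 1.15. Of 19 class II genes, 3 were higher and 14 lower, with a median of -1.37. Over all tested genes 33.6% were higher, 33.7% were lower and the median was -0.03. The 3 class II genes that were higher in OCI-LY3 were regulators: CIITA (1.33 ± 0.10), RFXAP (1.12 ± 0.13) and RFXANK (0.49 ± 0.15). RFX5 did not differ beyond its error (0.09 ± 0.16, edgeR adjusted p = 0.625). In contrast, all 9 class II chains and 5 of the 6 loading genes were lower in OCI-LY3, CD74 being the exception (0.32 ± 0.16, edgeR adjusted p = 0.0847).

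Among class II genes the gaps were widest for HLA-DRB5 and HLA-DQB1. HLA-DRB5 had 3.901, 4.77 and 5.36 CPM in untreated OCI-LY3, against 121, 172 and 162 CPM in untreated SU-DHL6 (log2 fold change -5.01 ± 0.18 (SE), edgeR adjusted p = 6.3e-12). HLA-DQB1 had 7.24, 7.09 and 7.57 CPM in untreated OCI-LY3, against 166, 168 and 188 CPM in untreated SU-DHL6 (-4.57 ± 0.11, edgeR adjusted p = 3.15e-13). No library of 1 line came near the other. HLA-DOB, HLA-DQA2 and HLA-DMB followed, at -3.56 ± 0.13, -3.18 ± 0.15 and -3.03 ± 0.11, and the DR alpha and DRB1 chains were nearest, at -1.16 ± 0.12 and -0.92 ± 0.12. HLA genes differ in sequence and, for DRB5, in presence between people, and how reads of each line's alleles matched the reference was not tested. Among class I genes the classical HLA-B stood out, with 1296, 1360.5 and 1391 CPM in untreated OCI-LY3, against 187, 167 and 194 CPM in untreated SU-DHL6 (2.88 ± 0.09, edgeR adjusted p = 3.31e-12). PSMB9 (2.29 ± 0.12), HLA-F (2.24 ± 0.27), PSMB8 (1.69 ± 0.11) and TAP1 (1.59 ± 0.11) were also higher in OCI-LY3. HLA-E (-0.85 ± 0.09) and TAP2 (-1.09 ± 0.08) were the class I genes lower in OCI-LY3. TAP1 and TAP2 thus differed in opposite directions between the untreated lines as well. These directions were the same under total counts and DESeq2 size factors. IFI30, lower in OCI-LY3 (-0.73 ± 0.24), lost its call without the first untreated OCI-LY3 (0.0566) or the third untreated SU-DHL6 library (0.0568).

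**Figure D3:**
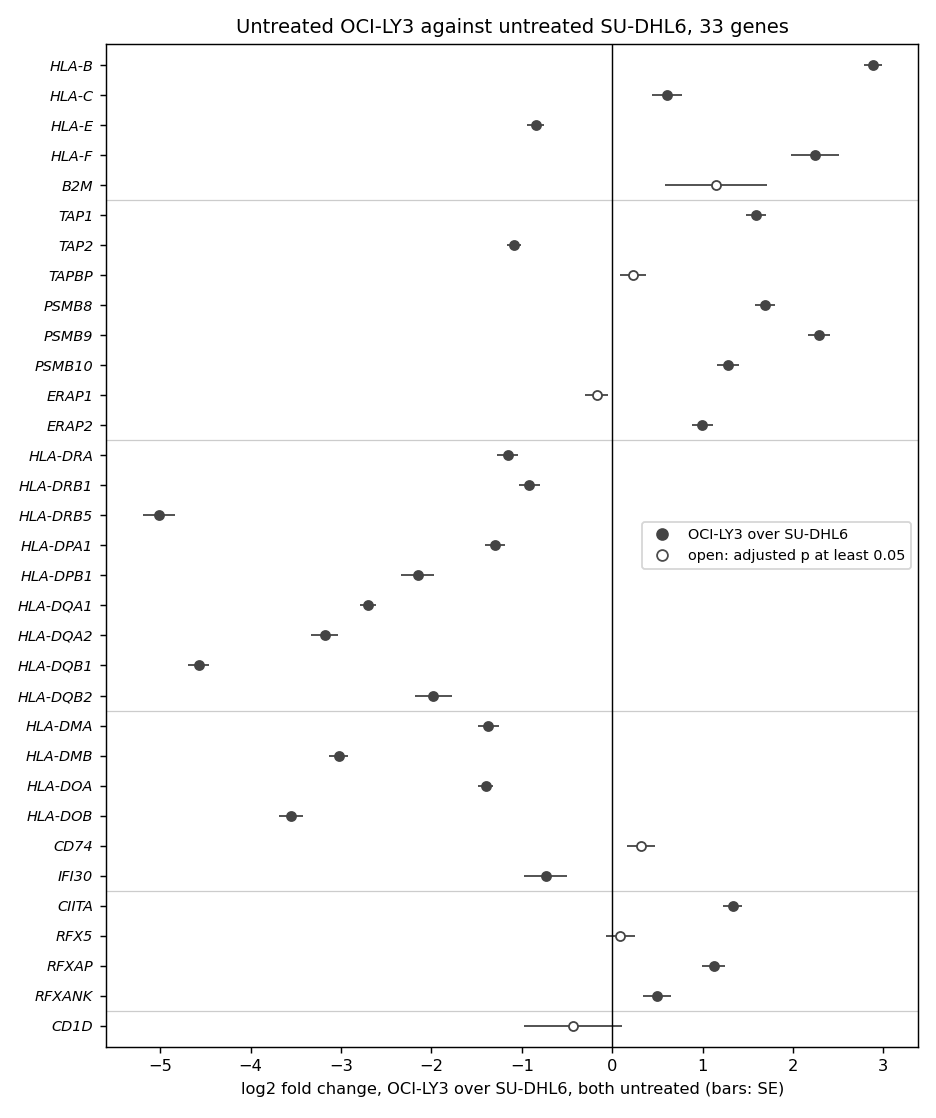
Untreated OCI-LY3 over untreated SU-DHL6 for 33 members. The x axis is the log2 fold change with its SE (3 libraries a group); filled points passed an edgeR adjusted p of 0.05. All class II chains lie left of 0, between -5.01 and -0.92, and most class I genes right of it. CD1C and NLRC5, at 0 to 3 counts in untreated SU-DHL6, are left out.

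Against the levels of untreated SU-DHL6, some class II genes of treated OCI-LY3 came near and others lay far below. HLA-DRA averaged 1884 ± 205 CPM in treated OCI-LY3 and 2155 ± 53.3 CPM in untreated SU-DHL6 (SD, n = 3 each). HLA-DMA averaged 115 ± 12.1 CPM and 129 ± 4.02 CPM in the same groups. HLA-DMB, HLA-DOB and HLA-DPB1 averaged 117 ± 8.80, 16.9 ± 1.69 and 215 ± 4.94 CPM in treated OCI-LY3, against 395 ± 17.9, 60.5 ± 5.86 and 387 ± 58.2 CPM in untreated SU-DHL6. HLA-DQB1 averaged 8.70 ± 0.319 CPM in treated OCI-LY3, against 174 ± 12.6 CPM in untreated SU-DHL6. These values are a description, since treated OCI-LY3 was not tested against untreated SU-DHL6.

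Levels of different genes can be set side by side only per length, here as CPM per kilobase of the shortest principal transcript. CD74 was highest in all 4 groups, with 5976 ± 386 in treated and 3350.0 ± 251 in untreated OCI-LY3 and 2330.0 ± 323 in treated and 2684 ± 662 in untreated SU-DHL6 (SD, n = 3 each). In treated OCI-LY3, HLA-DRA (1472 ± 160.2) and HLA-B (1301 ± 12.3) came next; every HLA-DRA value lay above every HLA-B value, by a mean gap of about the SD of HLA-DRA. In untreated OCI-LY3 the next were HLA-B (872 ± 31.6), B2M (761 ± 316) and HLA-DRA (755 ± 56.5), where B2M overlapped both. In SU-DHL6, HLA-DRA was second, with 1468 ± 221 with selinexor and 1684 ± 41.6 without it, and HLA-DPA1 and IFI30, which did not differ beyond their spread, followed. HLA-B was at 130.3 ± 8.80 in treated and 118 ± 8.82 in untreated SU-DHL6. Of the 4 class I heavy chains among the members, HLA-E was the most abundant in SU-DHL6 (169 ± 12.6 in treated and 431 ± 31.8 in untreated libraries), and HLA-B in OCI-LY3.

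The balance of the classes was summarised as the log2 ratio of 9 summed class II chains to 4 summed class I heavy chains (HLA-B, HLA-C, HLA-E and HLA-F). In deposited FPKM the ratio was 1.58 ± 0.15 in treated and 0.96 ± 0.07 in untreated OCI-LY3, and 3.37 ± 0.18 in treated and 2.59 ± 0.05 in untreated SU-DHL6 (SD, n = 3 each). Treated libraries had the higher ratio in both lines, with no overlap. In SU-DHL6 no class II chain was called higher, and all 9 had log2 fold changes below 0 under TMM (median -0.26). Under total counts, 5 of them lay above 0 and 4 below. The higher ratio there went with the fall of HLA-E, from a mean of 1122 to 440 CPM. The deposited FPKM uses gene lengths in which overlapping exons count repeatedly, which raises some chains against others. Per kilobase of principal transcript the ratios were 0.39 ± 0.12, -0.06 ± 0.06, 2.86 ± 0.19 and 2.34 ± 0.07 in the same order, so that the sums were about equal in untreated OCI-LY3.

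**Figure D4:**
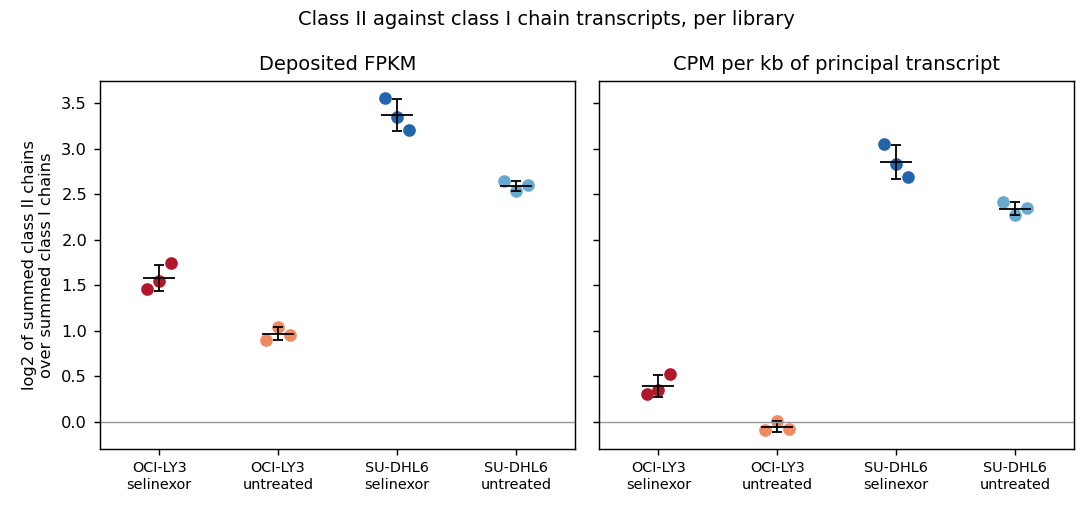
Log2 ratio of summed class II to summed class I chain transcripts in each library. The left panel uses deposited FPKM and the right panel CPM per kilobase of the principal transcript; points are libraries and bars the mean and SD of 3. In both panels treated libraries lie above the untreated ones of the same line, and SU-DHL6 lies above OCI-LY3. In SU-DHL6 the higher ratio went with a fall of HLA-E, and no class II chain was called higher.

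Genes around these pathways were read from 6 related lists. Over all tested genes under TMM, 22.2% rose and 22.2% fell in OCI-LY3, and 20.4% rose and 22.8% fell in SU-DHL6. The lists hold 3 to 13 tested genes, many of their counts are near those shares, and nothing is read from them beyond the genes named. Shares under total counts are not given, where the median over all tested genes was -0.087 in OCI-LY3 and 0.27 in SU-DHL6. Of 9 tested genes for endosomal proteases and class II turnover, 5 rose and 2 fell in OCI-LY3 and 1 rose and 4 fell in SU-DHL6. MARCH8, a ubiquitin ligase that removes surface class II, rose in both lines (1.75 ± 0.11 in OCI-LY3 and 0.39 ± 0.11 in SU-DHL6), and LGMN, a lysosomal endopeptidase, rose in OCI-LY3 (2.08 ± 0.25, edgeR adjusted p = 3.54e-05). CTSB and CTSC, cathepsins, fell in OCI-LY3 (-0.60 ± 0.11 and -0.85 ± 0.09); CTSB (-0.56 ± 0.12) and CTSH (-0.49 ± 0.12) fell in SU-DHL6. With total counts, the OCI-LY3 counts of this list were the same, but in SU-DHL6 2 rose and the 4 falls were lost. Of 12 other genes of class I loading and peptide supply, 2 rose and 3 fell in OCI-LY3 and 4 rose and 2 fell in SU-DHL6. TAPBPL, a class I peptide editor related to tapasin, rose in both (1.59 ± 0.14 in OCI-LY3 and 0.63 ± 0.15 in SU-DHL6). With total counts, 1 rose and 6 fell in OCI-LY3 and 7 rose and 2 fell in SU-DHL6, TAPBPL still rising in both.

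Of 10 genes of the interferon gamma pathway, 4 rose and 2 fell in OCI-LY3 and 3 rose and 1 fell in SU-DHL6. IRF9, a DNA-binding interferon response factor, and IFNGR2, a chain of the interferon gamma receptor, rose in OCI-LY3 (0.73 ± 0.13 and 0.60 ± 0.14), while IFNGR1, the other chain of that receptor, fell there (-0.49 ± 0.17, edgeR adjusted p = 0.0305). The kinase JAK1 rose in both lines (0.38 ± 0.09 in OCI-LY3 and 0.58 ± 0.09 in SU-DHL6), and IRF2 rose in OCI-LY3 (0.47 ± 0.11) and fell in SU-DHL6 (-0.88 ± 0.11). These calls held under total counts. IRF1, a transcription factor that interferon induces, fell in OCI-LY3 (-0.66 ± 0.11, edgeR adjusted p = 0.00034) and had -0.20 ± 0.12 in SU-DHL6, which did not pass. The IRF1 response was lower in OCI-LY3 than in SU-DHL6 when the difference was tested, by -0.46 ± 0.17 (edgeR adjusted p = 0.0409), under total counts as well. Of 13 other regulators of class II genes, 4 rose and 4 fell in each line. The histone methyltransferase EZH2 fell in both (-1.12 ± 0.11 in OCI-LY3 and -1.19 ± 0.11 in SU-DHL6), as did IRF4 (-0.99 ± 0.08 and -0.51 ± 0.08 in the same order). The NF-Y subunits NFYA and NFYC rose in both lines, NFYC by 0.52 ± 0.10 in OCI-LY3 and 0.35 ± 0.10 in SU-DHL6, and NFYA by 0.40 ± 0.11 and 0.61 ± 0.10 in the same order; under total counts the NFYA rise in OCI-LY3 was lost (0.0678). NFYB, the remaining subunit, fell in OCI-LY3 (-0.90 ± 0.12, edgeR adjusted p = 4.53e-05) and had 0.07 ± 0.12 in SU-DHL6, which did not pass; its response was lower in OCI-LY3 by -0.97 ± 0.17 (edgeR adjusted p = 0.000625), under total counts as well. With total counts, 3 of these regulators rose and 4 fell in OCI-LY3, and 6 rose and 2 fell in SU-DHL6.

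Of 8 co-stimulatory and adhesion genes, 3 rose and 4 fell in OCI-LY3 and 4 fell in SU-DHL6. CD86 rose (0.85 ± 0.16, edgeR adjusted p = 0.000775) and CD80, the other ligand of CD28, fell (-1.65 ± 0.14, edgeR adjusted p = 4.29e-07) in OCI-LY3, where CD274, the ligand of PD-1, also fell (-1.39 ± 0.30). The CD86 response was higher in OCI-LY3 than in SU-DHL6 by 1.22 ± 0.23 (edgeR adjusted p = 0.000912), and that of CD80 was lower there (0.000912). CD70 (-0.92 ± 0.12) and CD40 (-0.88 ± 0.15) fell in SU-DHL6. All these calls held under total counts. Of 3 tested MHC-like molecules, 1 rose and 1 fell in OCI-LY3 and 1 rose in SU-DHL6. FCGRT, the neonatal Fc receptor, a class I-like chain that pairs with B2M, rose in OCI-LY3 (2.10 ± 0.21, edgeR adjusted p = 2.39e-06) and had -0.18 ± 0.22 in SU-DHL6, which did not pass. HFE, a class I-like regulator of iron uptake, had 12, 11 and 6 counts in treated and 20, 27 and 20 counts in untreated OCI-LY3 libraries (-1.10 ± 0.42, edgeR adjusted p = 0.049); with DESeq2 size factors the fall was lost (0.0518), and only these untreated libraries carried HFE past the filter. In SU-DHL6 HFE had 2, 3 and 7 counts in treated and 0 in untreated libraries (edgeR adjusted p = 0.00772).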

How the data were processed

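RNA from OCI-LY3 and SU-DHL6 cells was sequenced in biological triplicate, per the labels' protocols; whether each triplicate was a separate culture is not stated, so p-values measure only the spread between these libraries. The authors deposited whole-number counts and FPKM per gene in 1 table of human Ensembl genes, per the file headers. No label or header names the aligner, the counter or the strand setting, and the submitters' notes on processing list mouse builds (GRCm38 and mm10), although the gene IDs are human.

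The deposited counts were fitted for all 12 libraries with the edgeR 4.0.16 quasi-likelihood test in R 4.3.3 (filterByExpr, TMM factors, a coefficient for each group). P-values were Benjamini-Hochberg adjusted over the 16474 genes kept, and calls were made at 0.05. The 4 contrasts were treated against untreated OCI-LY3, treated against untreated SU-DHL6, the first response minus the second, and the untreated lines. The script was tested on simulated data. Members and related lists were chosen with earlier results of these data known. All members are named, and of each related list up to 2 genes in each direction and line with the smallest adjusted p. CPM were computed from the deposited counts and TMM-scaled totals. The deposited FPKM used gene lengths in which exons shared by transcripts count repeatedly, for 94.9% of 33252 genes within 0.1%, so levels were also computed per kilobase of the shortest principal transcript of GENCODE 29. GENCODE 29 coordinates were identical for 32 of the 35 members. Depth was 14210200 to 16405842 counts a library, with TMM factors of 0.865 to 1.23, and counting intervals cover counting error only. Alternatives were DESeq2 1.42.0, limma-voom (limma 3.58.1), other scaling and filters, each line alone and a replicate block. Further ones were sums of related DRB, DQA and DQB chains, a stricter threshold and each library left out. Replicate numbers did not pair the libraries. Genes outside the lists were not analysed here one by one. Some genes of the related and marker lists are not reported here by name.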

Additional observations from a re-analysis of the deposited data

Results flagged for a closer look

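The response to selinexor differed between the lines for 21 members, by the interaction term of the edgeR quasi-likelihood model at an adjusted p under 0.05. Each value is the log2 response in OCI-LY3 minus that in SU-DHL6. Among class II chains these were HLA-DRA (1.16), HLA-DRB1 (0.51), HLA-DRB5 (0.72), HLA-DPA1 (0.86), HLA-DPB1 (1.61), HLA-DQA1 (0.36), HLA-DQA2 (0.74), HLA-DQB1 (0.50) and HLA-DQB2 (1.27). Among loading genes and regulators they were HLA-DMA (1.44), HLA-DMB (1.69), HLA-DOA (1.01), HLA-DOB (1.79), CD74 (1.04) and RFXANK (0.81). Among class I genes they were HLA-B (0.44), HLA-C (0.63), HLA-E (0.75), TAP1 (1.04) and TAP2 (-0.47), and of the CD1 genes CD1D (2.23). Line, dose and time cannot be told apart here, since no label gives the dose or time of a library.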

How the results depend on the processing

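Over 22 alternatives, 86 of 137 single-gene results kept their direction and side of the threshold throughout, and 1 turned round. With total counts, the members called in SU-DHL6 were 1 higher and 5 lower, and those of the difference between lines 12 higher and 5 lower. The median over all tested genes was then 0.27 in SU-DHL6 and -0.35 for the difference. The share of all tested genes called is not given for that scaling. Class I medians became -0.30 in OCI-LY3, 0.16 in SU-DHL6, -0.15 for the difference and 1.15 between untreated lines (1.21 under TMM, NLRC5 included in both). Class II medians became 0.022 in SU-DHL6 and 0.42 for the difference. The HLA-DQA1 difference turned to -0.020 (edgeR adjusted p = 0.946). These values moved in the same direction as the median over all tested genes under that scaling, and the cause was not tested. Nor was it tested for the other settings that moved a value. These gave a class I median of -0.26 in OCI-LY3 with limma-voom, and of 1.26 between untreated lines with the replicate block. With each pair of related DRB, DQA and DQB chains summed, which leaves fewer chains, the class II median of OCI-LY3 was 0.64. At an adjusted p under 0.01, 6 members were lower in OCI-LY3 and 12 had a higher response there. The share of all tested genes called at that threshold is not given here, so these counts have no such comparison.

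The class ratio (log2) with CPM in place of FPKM was 0.12 in treated and -0.42 in untreated OCI-LY3, and 2.31 in treated and 1.62 in untreated SU-DHL6. Per kilobase, an alternative chosen after seeing the data, it was 0.39, -0.058, 2.86 and 2.34 in the same order. Without HLA-DRB5, HLA-DQA2 and HLA-DQB2 it was 2.43 in untreated SU-DHL6. Treated libraries had the higher mean in every version.

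With 1 library left out at a time, OCI-LY3 had 12 to 16 members higher and 7 to 11 lower, SU-DHL6 0 to 1 higher and 8 to 15 lower, the difference 14 to 21 higher and 1 to 2 lower, and the untreated lines 13 to 14 higher and 15 to 16 lower, NLRC5 and CD1C included. The share of all tested genes called in these fits is not given here. The 1 gene higher in SU-DHL6 was NLRC5, without the third untreated library, which held its 3 counts there. Class I medians ran from -0.32 to -0.14 in OCI-LY3, -0.20 to -0.085 in SU-DHL6, 0.15 to 0.37 for the difference and 1.14 to 1.40 between lines. Class II medians ran from 0.36 to 0.51, -0.33 to -0.17, 0.68 to 0.94 and -1.40 to -1.32 in the same order. Class ratios ran from 1.499 to 1.64 in treated and 0.92 to 1.00 in untreated OCI-LY3, and from 3.28 to 3.46 in treated and 2.57 to 2.62 in untreated SU-DHL6.

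To see whether replicate numbers pair the libraries, each gene's group mean of log2 CPM was subtracted. The remaining deviations of same-numbered libraries from different groups correlated at -0.149 to 0.0542, so the numbers do not pair them. By these deviations, 0 of 6 libraries in OCI-LY3 and 1 of 6 in SU-DHL6 correlated best with their own number. Between the untreated lines 3 of 6 did. With the replicate block, genes called came to 6867 in place of 7321 in OCI-LY3 and 6699 in place of 7123 in SU-DHL6, and 4 member calls were lost: TAP1 (0.0796) and HLA-DQA1 (0.0755) in OCI-LY3, HLA-DRB5 in SU-DHL6 (0.0547) and the HLA-DQA1 difference (0.0539). With 3 libraries a group, genes of few counts (CD1C, CD1D, HLA-DQB2) and B2M, whose replicates lie far apart, are measured least closely, and NLRC5 and CD1C cannot be followed in SU-DHL6.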
